A study of Mus musculus with 8 samples.

Results

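The p53 target genes are a set of 33 genes, chosen by name as genes that the tumour suppressor p53 is known to regulate, and all 33 were found among the 35896 genes of the deposited count table. They comprise 4 regulators of p53 (Trp53 itself, its relative Trp73 and the inhibitors Mdm2 and Mdm4), 7 genes of arrest and growth control, 12 of apoptosis and survival, 5 of DNA repair and nucleotide supply, and 5 metabolic and other targets. The p53 protein is a transcription factor that is kept low by Mdm2, which marks it for degradation, and by Mdm4. When DNA damage, ribosomal stress or other injury stabilises it, p53 switches on genes that stop the cell cycle, repair DNA or start apoptosis, and it also switches on Mdm2, which closes a feedback loop. In embryonic facial mesenchyme, which derives from the neural crest, excess p53 activity is known from mouse mutants to cause cell death and facial defects.

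RNA was sequenced from mouse molar tooth germs, the buds that give rise to the molars, dissected from embryos with the genotype BRE-GFP, in which a BMP-Smad responsive element drives green fluorescent protein, and cultured for 1 day. The groups were E12.5 germs given SIS3, an inhibitor of Smad3; E12.5 germs given SB431542, which blocks type I receptors for TGF-beta and activin; E13.5 germs given the solvent DMSO; and E12.5 germs given DMSO. All groups carry the reporter, but the sources used here state neither the doses nor the number of germs per sample. Each group has 2 deposited columns of estimated counts. The TruSeq RNA kit v2 was used for both SIS3 libraries and the SMARTer Universal Low Input kit for all other libraries, so in every SIS3 comparison the inhibitor and the kit cannot be told apart.

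In 3 groups the paired columns were nearly copies of each other. Over the p53 target genes with at least 10 counts, the squared difference between paired columns averaged 1.39 times the variance of splitting 1 set of reads at random for SB431542, 1.21 times for E13.5 DMSO and 1.67 times for E12.5 DMSO, against 26.1 times for SIS3. Over all genes with 1 transcript it was 1.61 to 2.63 times in the 3 groups, against 20.4 for SIS3. For genes with 2 or more transcripts it was 2.81 to 3.56 times, against 22.5, so the pairs differed by more than a random split. The totals of paired columns differed by 0.00168% to 0.00749% in the 3 groups, against 44.5% for SIS3. Because those 3 pairs lay far closer than the SIS3 libraries, each was summed and counted as 1 sample. This left 5 libraries of 5995709 to 30975010 counts. Every p-value below rests on the spread between the 2 SIS3 libraries, which may be technical, and on the spread that edgeR borrows across genes. For the 3 groups with 1 library, the same spread as in SIS3 is taken for granted. Of the markers of the labelled tissue, Msx1, Pax9 and Barx1 of the dental mesenchyme stood between 144 and 472 CPM (counts scaled to one common library total) in the 5 libraries.

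The p53 protein is known to bind a palindromic DNA element, and the matches to it in the promoters of these genes are shown because that element is how targets are usually recognised. RefSeq windows on GRCm38.p6, from 250 bases before to 50 bases after an annotated start, were found for 26 of the 33 genes, and several genes have more than 1 start. No window was found in that table for Trp53inp1, Zmat3, Pmaip1, Tnfrsf10b, Rrm2b, Xpc and Ddb2. The windows were searched for the palindromic p53 consensus (a pair of decamers with no spacer), with both 4-base cores intact and at most 3 mismatches elsewhere, which covers both strands at once. A match was present in 6 of the 26 genes (23.1%), against 182 of 27025 genes with a window (0.673%). A match describes these letters and shows neither binding nor a cause. The letters CATGNNNNNNCATG, which read the same on both strands and are a subset of the paired cores, were present in 1 of the 26 genes (3.85%) and in 0.833% of all genes. The matches are given with the 2 cores in capitals.
Cdkn1a: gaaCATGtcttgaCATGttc
Rps27l: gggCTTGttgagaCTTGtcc
Trp53: ggaCTTGcccttaCTTGtta
Bbc3: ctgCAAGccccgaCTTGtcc
Aen: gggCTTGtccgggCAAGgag
Tigar: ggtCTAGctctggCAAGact
The Cdkn1a and Rps27l matches had 1 mismatch each and the other 4 had 3. Cdkn1a, which encodes the cyclin-dependent kinase inhibitor p21, and Bbc3, which encodes the death protein Puma, stand for the arrest and the apoptosis genes, and their whole windows are shown with the match in capitals. The Cdkn1a window (chr17:29090729-29091028, plus strand) belongs to the more upstream of its 2 annotated starts, and the Bbc3 window (chr7:16309333-16309632, plus strand) to the most upstream of 3.
Cdkn1a: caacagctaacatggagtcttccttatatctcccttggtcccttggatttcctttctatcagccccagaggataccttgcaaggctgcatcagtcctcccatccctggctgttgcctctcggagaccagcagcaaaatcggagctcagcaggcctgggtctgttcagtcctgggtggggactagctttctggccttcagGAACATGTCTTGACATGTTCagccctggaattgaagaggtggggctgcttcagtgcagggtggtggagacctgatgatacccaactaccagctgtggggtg
Bbc3: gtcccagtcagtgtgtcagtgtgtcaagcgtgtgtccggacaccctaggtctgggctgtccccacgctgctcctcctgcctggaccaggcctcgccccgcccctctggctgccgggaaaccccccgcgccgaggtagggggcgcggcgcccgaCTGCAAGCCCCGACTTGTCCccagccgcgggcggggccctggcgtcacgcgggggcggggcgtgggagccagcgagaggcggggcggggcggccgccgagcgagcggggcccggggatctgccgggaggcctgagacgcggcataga

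The first comparison asked how the p53 target genes stood after 1 day of SIS3. Most were higher in both SIS3 libraries than in E12.5 DMSO. Of the 33 genes 5 rose and 0 fell by the quasi-likelihood test of edgeR, with p-values adjusted after Benjamini-Hochberg over 19022 genes: Trp53inp1, Bbc3, Pmaip1, Ccng1 and Zmat3. That is 15.2% of the set, against 3.82% of all genes tested that were called in either direction, 0.794% higher and 3.03% lower. The set was chosen with earlier results of these data known, so such shares, here and below, are a description and no independent support. At an unadjusted p under 0.05 in edgeR there were 14 members higher and 1 lower (5.82% and 11.0% of all genes). DESeq2 called 6 members higher and 0 lower. The share of all genes called by DESeq2 is not given here, so its counts, here and below, are no result about the set. The median fitted log2 fold change of the 33 was 0.80, with 26 above 0, against a median of 0 over all genes. Summed over the 33 genes, the level was 2772 and 2305 CPM in the SIS3 libraries, against 1197 CPM in E12.5 DMSO.

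All 33 genes were tested. In E12.5 DMSO 32 of them reached the level required by the filter, and Gdf15 reached it only in SIS3 library 1 and in SB431542. Endothelial markers moved in the same comparison: 11 of 12 fell, with a summed level of 96.7 and 76.1 CPM in the SIS3 libraries, against 523 CPM in E12.5 DMSO. Macrophage markers fell in 6 of 12, at 15.8 and 13.9 CPM in the SIS3 libraries, against 77.7 CPM in E12.5 DMSO. Skeletal muscle markers fell in 2 of 6 (Ttn and Myh3) and were below 0 in all 6, summing to 252 and 208 CPM in the SIS3 libraries, against 709 CPM in E12.5 DMSO. Of the 8 dental mesenchyme markers 1 fell, Dlx2 (log2 fold change -1.33, adjusted p = 0.0464, edgeR), and the list summed to 2951 and 2601 CPM in the SIS3 libraries, against 3400 CPM in E12.5 DMSO. Other lists did not fall as a set. Erythroid markers had a log2 fold change above 0 in 5 of 6 with 0 called, summing to 845 and 391 CPM in the SIS3 libraries, against 428 CPM in E12.5 DMSO. The libraries disagreed: 0 of these 6 were below 0 in library 1 (median log2 ratio 1.49) and 4 in library 2 (-0.09). Dental epithelium markers were above 0 in 6 of 8 with 0 called, at 61.0 and 250 CPM in the SIS3 libraries, against 125 CPM in E12.5 DMSO. By library, 6 of these 8 were below 0 in library 1 and 0 in library 2. No marker of these lists was at 0 counts in both SIS3 libraries. In whole germs, fewer cells of a type and less RNA per cell cannot be told apart, and the part of these markers in the results on p53 target genes was not tested.

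Among the p53 regulators, 0 of 4 passed in edgeR, with 1 at an unadjusted p under 0.05. Trp53 (ENSMUSG00000059552; GRCm38 chromosome 11, 69580359 to 69591873, plus strand) stood at 49.9 and 64.8 CPM in the SIS3 libraries, 71.2 and 71.5 CPM in the SB431542 columns and 56.5 and 57.0 CPM in the E13.5 DMSO columns, against 86.7 and 78.0 CPM in the E12.5 DMSO columns. It was thus lowest in 1 SIS3 library, with E13.5 DMSO lying between the SIS3 libraries. The SIS3 log2 fold change was -0.59 (SE 0.31, 95% CI -1.27 to 0.08, adjusted p = 0.368, edgeR). Mdm2, which encodes the ubiquitin ligase that degrades p53 and is itself a p53 target, stood at 184 and 106 CPM in the SIS3 libraries, 81.3 and 78.6 CPM in the SB431542 columns and 78.5 and 84.0 CPM in the E13.5 DMSO columns, against 80.1 and 81.8 CPM in the E12.5 DMSO columns. Both SIS3 libraries lay above every other column, library 1 far more than library 2. Its log2 fold change of 0.77 (SE 0.38, adjusted p = 0.341) fell to 0.30 without library 1. Mdm4, which encodes a p53 inhibitor related to Mdm2, stood at 421 and 347 CPM in the SIS3 libraries, against 185 CPM in the summed E12.5 DMSO library (log2 fold change 0.99, SE 0.31, adjusted p = 0.102). Trp73, which encodes the p53 family member p73, stood at 0.834 and 4.77 CPM in the SIS3 libraries, against 2.36 CPM in E12.5 DMSO, so its SIS3 libraries lay on either side.

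Of the 7 arrest and growth control genes, 2 rose, and the median log2 fold change was 1.05. Ccng1 (ENSMUSG00000020326; chromosome 11, 40748552 to 40755311, minus strand), which encodes cyclin G1, stood at 179 and 146 CPM in the SIS3 libraries, 47.3 and 46.2 CPM in the SB431542 columns and 89.3 and 92.5 CPM in the E13.5 DMSO columns, against 40.3 and 42.7 CPM in the E12.5 DMSO columns. Neither SIS3 library overlapped any other column, and the log2 fold change was 1.90 (SE 0.34, adjusted p = 0.00655, edgeR). Zmat3 (ENSMUSG00000027663; chromosome 3, 32334792 to 32366014, minus strand), which encodes an RNA-binding zinc finger protein, stood at 199 and 205 CPM in the SIS3 libraries, 70.0 and 74.8 CPM in the SB431542 columns and 66.9 and 67.5 CPM in the E13.5 DMSO columns, against 56.0 and 57.0 CPM in the E12.5 DMSO columns. The SIS3 libraries were almost equal, and the log2 difference was 1.76 (SE 0.32, adjusted p = 0.00739, edgeR). Both calls ended in 1 of 13 alternatives on summed libraries, the restriction to genes that averaged at least 5 CPM (adjusted p = 0.0564 for Ccng1 and 0.055 for Zmat3).

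Cdkn1a (ENSMUSG00000023067; chromosome 17, 29090976 to 29100727, plus strand), the best known arrest gene of the p53 response and with Rps27l 1 of the 2 genes with the closest match shown above, did not pass. It stood at 34.9 and 28.4 CPM in the SIS3 libraries, 9.02 and 11.9 CPM in the SB431542 columns and 12.8 and 9.59 CPM in the E13.5 DMSO columns, against 12.9 and 13.1 CPM in the E12.5 DMSO columns. Both SIS3 libraries lay above all other columns, and the difference was 1.21 on the log2 scale (SE 0.46, 95% CI 0.22 to 2.20, adjusted p = 0.191, edgeR). Plk2, encoding a stress-responsive polo-like kinase, stood at 385 and 364 CPM in the SIS3 libraries, against 172 CPM in E12.5 DMSO (log2 fold change 1.05, SE 0.30, adjusted p = 0.0739). Gadd45a, encoding a growth arrest and DNA damage protein, was at 0.94 (SE 0.54) on the same scale, whereas Plk3 was at 0.03 and Sesn1, an inhibitor of growth signalling through mTOR, at -0.09.

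The 12 apoptosis and survival genes held the largest differences among the called members, with 3 higher, 0 lower and a median log2 fold change of 0.85. Trp53inp1 (ENSMUSG00000028211; chromosome 4, 11156431 to 11174379, plus strand), encoding a stress-induced protein of apoptosis and autophagy, stood at 384 and 246 CPM in the SIS3 libraries, 80.0 and 88.2 CPM in the SB431542 columns and 48.2 and 49.8 CPM in the E13.5 DMSO columns, against 44.8 and 43.9 CPM in the E12.5 DMSO columns. The order of the groups was clear of overlap, SIS3 being highest, SB431542 next and the DMSO groups lowest. Its SIS3 log2 fold change was 2.76 (SE 0.39, adjusted p = 0.00244, edgeR), and it was called in all 13 alternatives on summed libraries, with adjusted p between 1.52e-11 and 0.0459.

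Bbc3 (ENSMUSG00000002083; chromosome 7, 16308393 to 16318205, plus strand), whose product Puma blocks the survival proteins of the Bcl-2 family, stood at 38.7 and 13.8 CPM in the SIS3 libraries, 6.75 and 9.16 CPM in the SB431542 columns and 2.28 and 2.17 CPM in the E13.5 DMSO columns, against 2.00 and 2.84 CPM in the E12.5 DMSO columns. Both SIS3 libraries were above every other column, but library 1 was well above library 2. The log2 fold change was 3.37 (SE 0.77, adjusted p = 0.0431, edgeR), and without library 1 it was 2.40. Pmaip1 (ENSMUSG00000024521; chromosome 18, 66458533 to 66465565, plus strand), which encodes the related death protein Noxa, stood at 9.01 and 10.4 CPM in the SIS3 libraries, 1.85 and 1.78 CPM in the SB431542 columns and 6.39 and 5.48 CPM in the E13.5 DMSO columns, against 0.775 and 1.03 CPM in the E12.5 DMSO columns. It was high in SIS3 and intermediate at E13.5, with no overlap between groups. The SIS3 log2 fold change was 3.34 (SE 0.78, adjusted p = 0.0309, edgeR), from 152 counts in SIS3 and 28 in E12.5 DMSO. The Bbc3 call ended in 8 and the Pmaip1 call in 4 of the 13 alternatives, with adjusted p up to 0.16 and 0.0749. For Bbc3 these 8 included leaving out the first column of E12.5 DMSO (0.0538), the first of SB431542 (0.0511), the first of E13.5 DMSO (0.0657) and the second of E13.5 DMSO (0.0702).

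The other 9 genes of apoptosis and survival did not pass. Bax, encoding the pore-forming executor of mitochondrial apoptosis, stood at 33.7 and 39.2 CPM in the SIS3 libraries, 21.6 and 22.1 CPM in the SB431542 columns and 14.04 and 19.3 CPM in the E13.5 DMSO columns, against 19.9 and 20.3 CPM in the E12.5 DMSO columns. The SIS3 libraries lay above all other columns (log2 fold change 0.79, SE 0.40, adjusted p = 0.351). Apaf1, encoding the scaffold of the apoptosome, stood at 144 and 133 CPM in the SIS3 libraries, against 70.4 CPM in E12.5 DMSO (0.90, SE 0.31, adjusted p = 0.147). Aen, a nuclease gene whose promoter match is shown above, had a log2 fold change of 1.03 and Phlda3, an inhibitor of Akt signalling, of 0.95. Smaller values were found for Ei24, a growth suppressor of the endoplasmic reticulum (0.49), Pidd1, a death domain adaptor (0.41), and the death receptor Tnfrsf10b (0.34). The death receptor gene Fas stood at 10.0 CPM in SIS3 library 1 and 1.70 CPM in library 2, against 3.16 CPM in E12.5 DMSO, so these libraries pointed in opposite directions. Dram1, encoding a lysosomal protein of autophagy, was lowest in the class (-1.05, SE 0.96), at 1.00 and 0.849 CPM in the SIS3 libraries, against 1.81 CPM in E12.5 DMSO.

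DNA repair and nucleotide supply genes gave 0 calls among 5 in edgeR (2 at an unadjusted p under 0.05), with a median log2 fold change of 0.91. The highest was Polk, which encodes a translesion DNA polymerase, at 63.9 and 38.8 CPM in the SIS3 libraries, against 16.7 CPM in E12.5 DMSO (1.55, SE 0.44, adjusted p = 0.0737, edgeR). Ercc5, encoding an endonuclease of nucleotide excision repair, stood at 130 and 103 CPM in the SIS3 libraries, against 58.2 CPM in E12.5 DMSO (0.93, SE 0.33, adjusted p = 0.156). Ddb2, encoding a damage sensor of the same pathway, stood at 14.01 and 17.3 CPM in the SIS3 libraries, 8.17 and 8.45 CPM in the SB431542 columns and 3.65 and 5.82 CPM in the E13.5 DMSO columns, against 7.94 CPM in each E12.5 DMSO column. The SIS3 libraries did not overlap the rest, with a difference of 0.91 on the log2 scale (SE 0.55, adjusted p = 0.446). Ddb2 shares 20.6% of its 31-base words with other genes, mostly Acp2, which overlaps it on the opposite strand, and the sources used here do not say whether counting used strand. Rrm2b, a ribonucleotide reductase subunit gene, stood at 0.32, and Xpc, another damage sensor gene, at -0.04 (95% CI -0.75 to 0.66).

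The 5 metabolic and other targets differed in direction, with 0 calls in edgeR (2 at an unadjusted p under 0.05) and a median log2 fold change of -0.28, which is the value of Tigar. The median ratio was -1.02 in SIS3 library 1 and 0.20 in library 2. Ak1, which encodes adenylate kinase, stood at 1.67 and 2.97 CPM in the SIS3 libraries, 5.33 and 6.11 CPM in the SB431542 columns and 23.3 and 18.6 CPM in the E13.5 DMSO columns, against 7.88 and 9.49 CPM in the E12.5 DMSO columns. It was the lowest member in SIS3 (-1.95, SE 0.59, 95% CI -3.22 to -0.68, adjusted p = 0.0926, edgeR). Cd82, encoding a tetraspanin, stood at 7.34 and 7.21 CPM in the SIS3 libraries, against 14.4 CPM in E12.5 DMSO (-1.05, SE 0.50). Rps27l, encoding a relative of a ribosomal protein, was at 0.59 (SE 0.39) and shares 16.1% of its 31-base words with other genes. Its relative Rps27 stood at 4.67 and 10.4 CPM in the SIS3 libraries, 285 and 293 CPM in the SB431542 columns and 171 and 163 CPM in the E13.5 DMSO columns, against 335 and 332 CPM in the E12.5 DMSO columns. The part of Rps27 in the Rps27l value was not tested. Tigar, encoding a sugar phosphatase that restrains glycolysis, was at -0.28 (SE 0.69). Gdf15, which encodes a stress-induced cytokine of the TGF-beta family, had 33 and 5 counts in the SIS3 libraries, 7 and 12 counts in the SB431542 columns and 0 in both E13.5 DMSO columns, against 0 and 2 counts in the E12.5 DMSO columns. The ratio of SIS3 to E12.5 DMSO was 38.2 (counting interval 9.86 to 327, which covers counting error only), and the fit did not call it (adjusted p = 0.173). Library 1 carried most of it, with a ratio of 85.2 (21.8 to 733) against 8.21 (1.34 to 86.3) for library 2 alone.

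**Figure D1:**
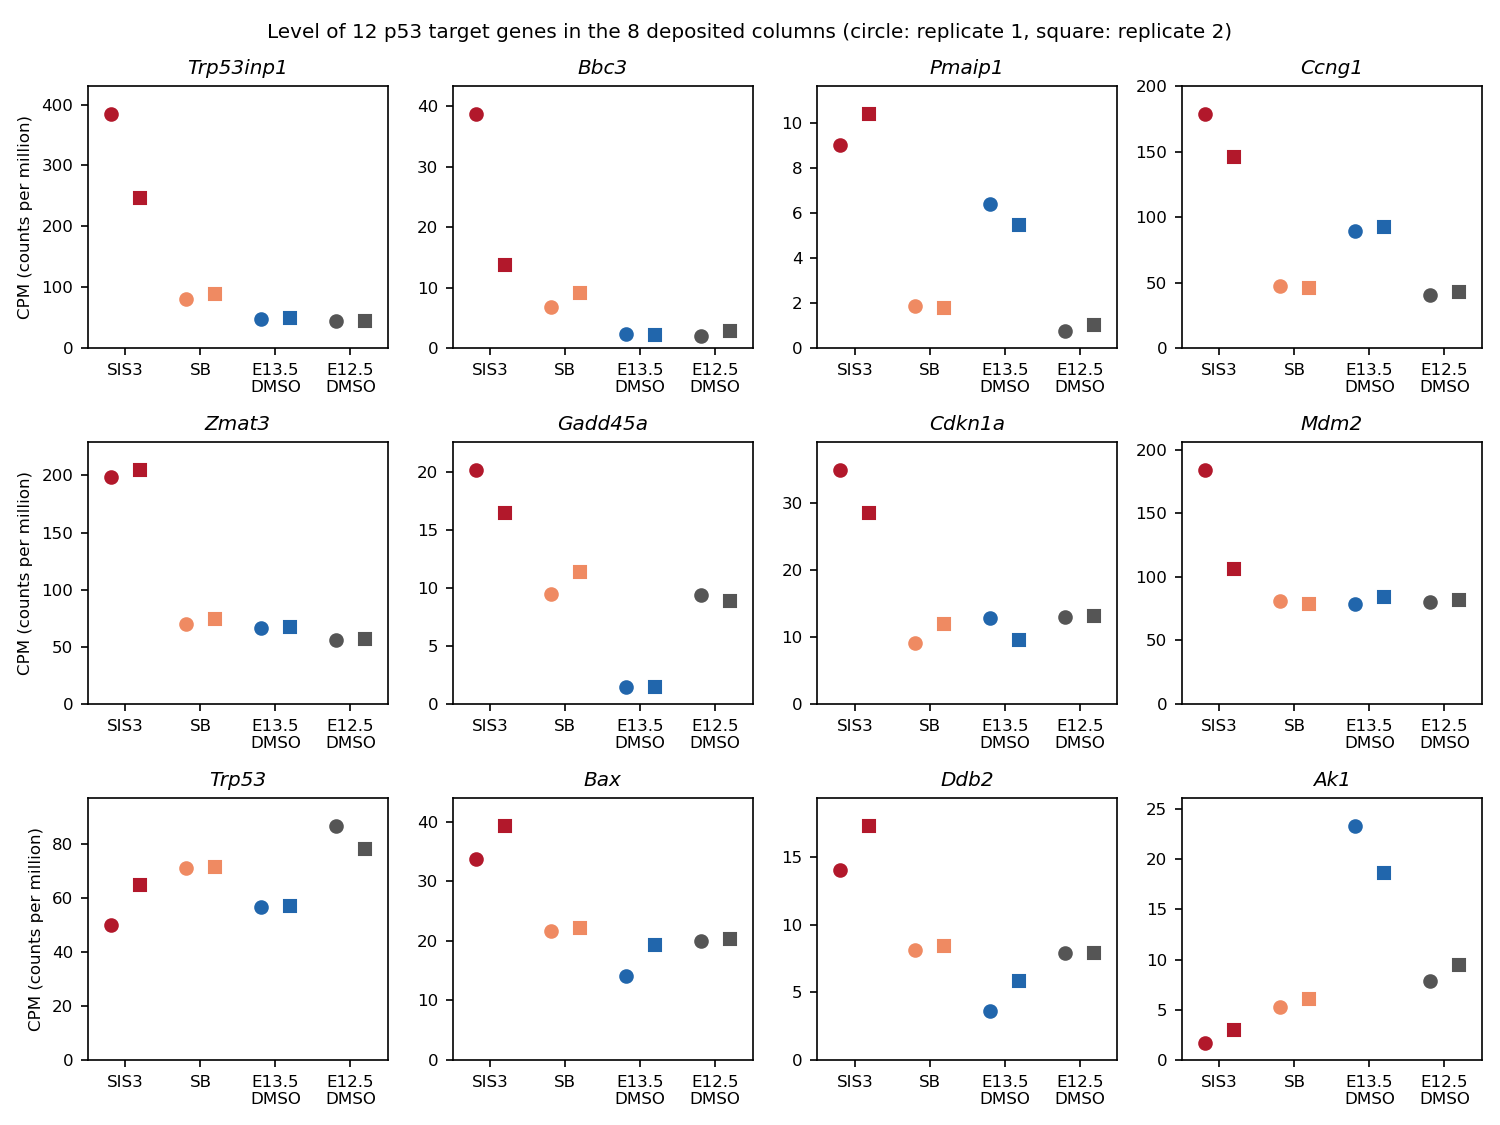
Level in CPM (linear vertical axis from 0) of 12 p53 target genes in the 8 deposited columns, grouped by treatment and stage, with circles for replicate 1 and squares for replicate 2. The 2 SIS3 points stand apart from each other in Bbc3 (38.7 and 13.8 CPM) and Mdm2 (184 and 106 CPM), whereas paired columns of the other groups lie closer in both genes. In other panels those pairs can lie apart too, such as Ddb2 (3.65 and 5.82 CPM) and Bax (14.04 and 19.3 CPM) at E13.5. Gadd45a is lowest at E13.5 (1.48 CPM in both columns).

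Both SIS3 libraries lay above all 3 SMARTer libraries in 19 of the 33 genes (57.6%, against 19.5% of all genes tested) and below all 3 in 3 genes (9.09%, against 24.0%). By role, the genes above numbered 5 of 7 in arrest and growth control, 8 of 12 in apoptosis and survival, 3 of 5 in repair, 2 of 4 regulators (Mdm2 and Mdm4) and 1 of 5 metabolic and other targets (Rps27l). Pidd1, counted in apoptosis and survival, was above only after summing: SIS3 library 1 (12.8 CPM) lay below the first E12.5 DMSO column (13.6 CPM). The 3 below were Ak1, Cd82 and Dram1. The classes of arrest, apoptosis and repair thus had like medians, between 0.85 and 1.05, but repair had no call. A difference between the classes was not tested, and with 5 to 12 genes a class such counts are a description.

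**Figure D2:**
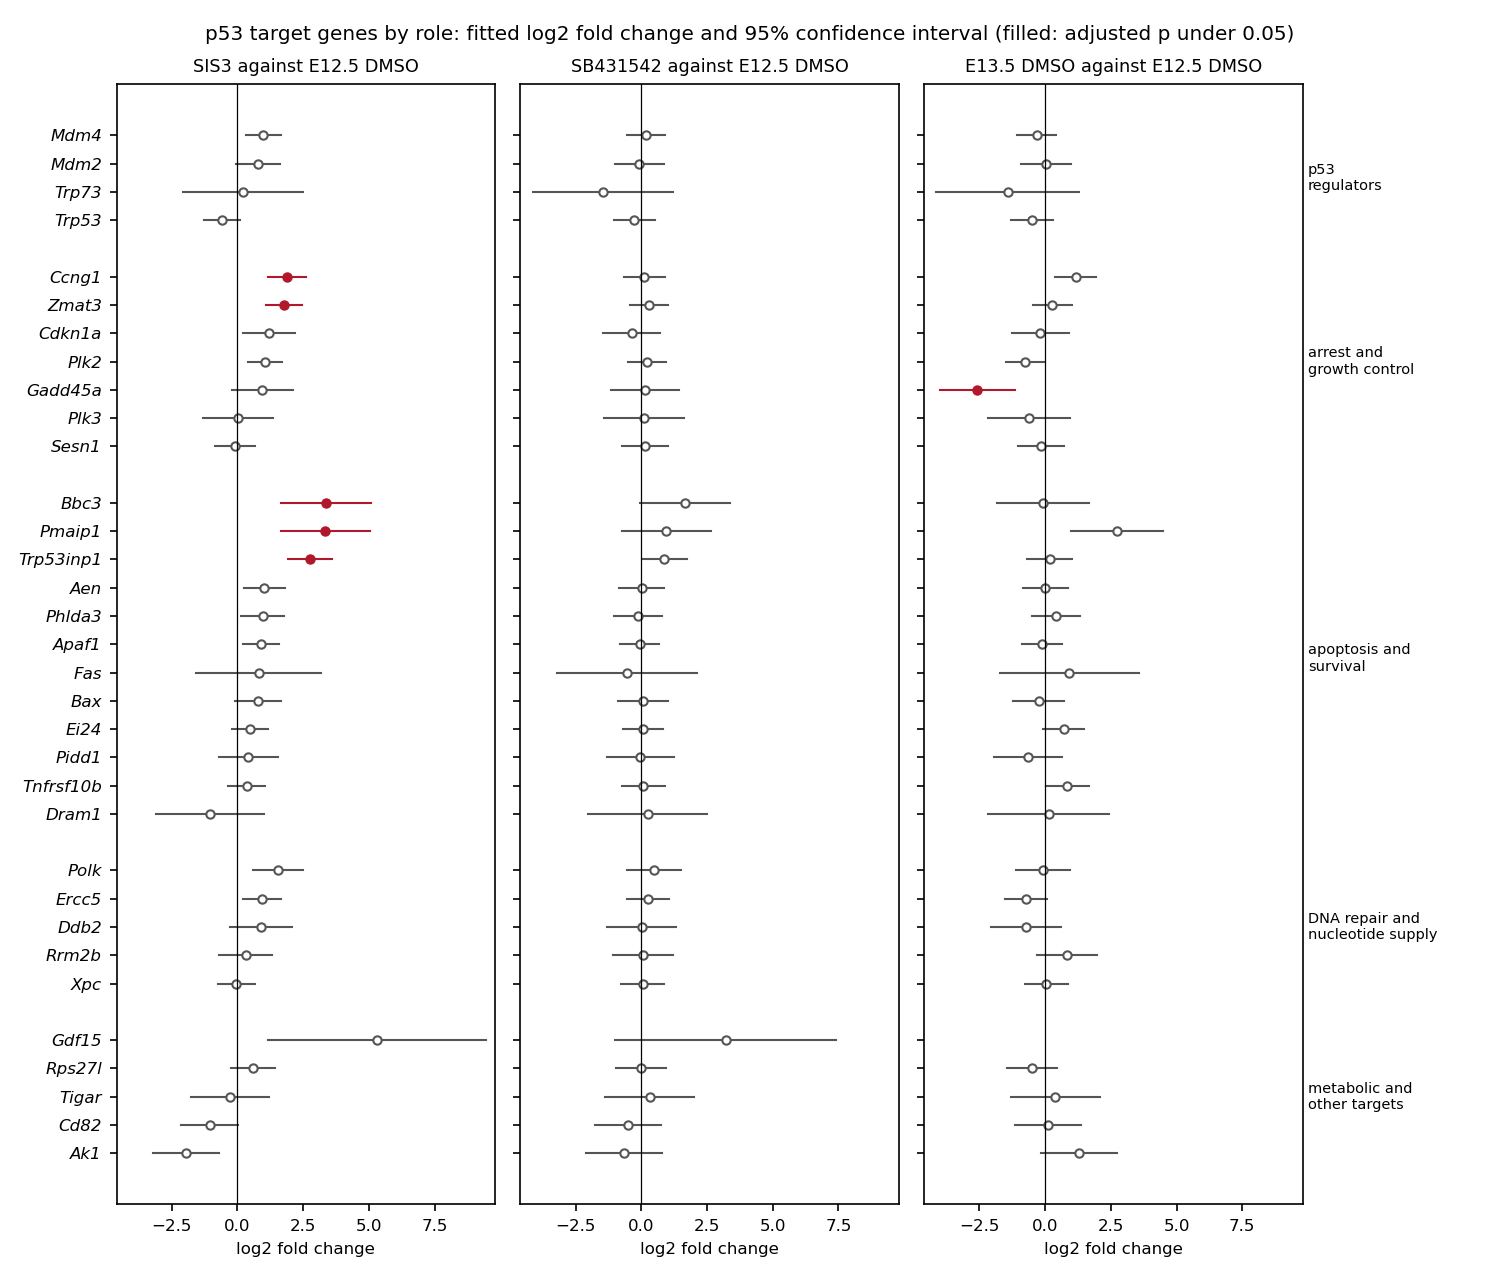
Fitted log2 fold change (points) and 95% confidence interval (lines) of each p53 target gene against E12.5 DMSO, for SIS3, SB431542 and E13.5 DMSO, with genes grouped by role and filled red points at an adjusted p under 0.05; Gdf15 is left out at E13.5, where it had 0 counts. The 5 called genes of the SIS3 panel lie in the arrest and apoptosis classes, and the SB431542 panel has none.

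The 2 SIS3 libraries varied among themselves about as much in these genes as in others. The median absolute log2 difference between them was 0.33 over the 33 genes and 0.35 over 15546 genes at 1 CPM or more. Library 1 was the higher one in 23 of 33 genes. The largest gaps were in Gdf15 (log2 of library 2 over library 1, -3.42), Fas (-2.60), Trp73 (2.47), Bbc3 (-1.53) and Tigar (1.28). Zmat3 (0.00) and Cd82 (-0.07) were nearly equal in both. The libraries also differed in the 8 dental epithelium markers (61.0 CPM summed in library 1 and 250 CPM in library 2, on either side of 125 CPM in E12.5 DMSO) and in 18 cell cycle genes that p21 is known to hold down (1577 and 608 CPM). Whether these gaps have a part in those of the p53 target genes was not tested.

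**Figure D3:**
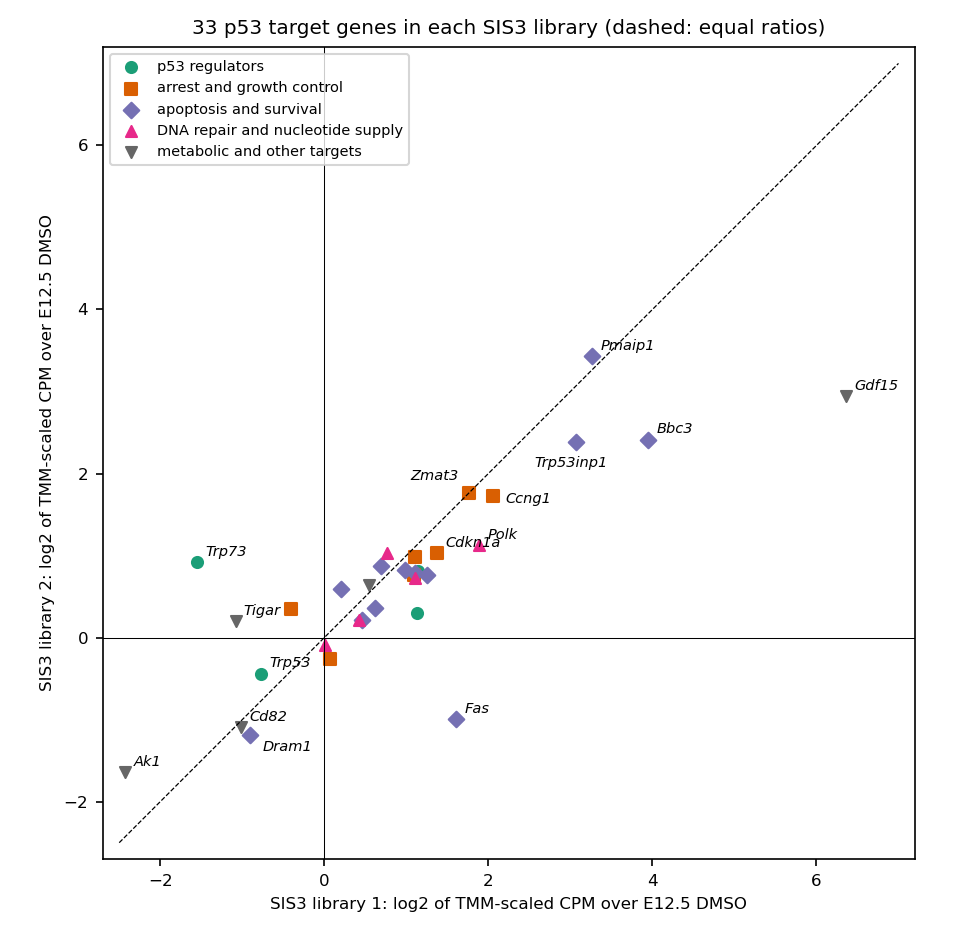
Log2 ratio of TMM-scaled CPM over E12.5 DMSO in SIS3 library 1 (horizontal axis) and SIS3 library 2 (vertical axis) for the 33 p53 target genes, with marker shape and colour by role and a dashed line at equal ratios. Most genes lie near the line in the upper right, while Fas (1.61 and -0.99) and Trp73 (-1.55 and 0.92) are among those that change sign between the libraries.

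The second comparison asked whether receptor inhibition by SB431542 moved the same genes. No member passed: edgeR called 0 of 33 (and 0% of all genes), with 1 higher at an unadjusted p under 0.05 (0.568% of all genes higher and 0.668% lower), and DESeq2 called 0. The median log2 fold change was 0.08, with 22 genes above 0, against 0.00 over all genes. In TMM-scaled CPM 50.2% of all genes were higher in SB431542. All 8 dental epithelium markers were below 0 in the same comparison (median -1.46, 0 called by edgeR, 2 at an unadjusted p under 0.05), summing to 39.5 CPM in SB431542 against 125 CPM in E12.5 DMSO, and their part in the member values was not tested. Among the members the highest were Gdf15, with 19 counts in SB431542 against 2 in E12.5 DMSO (ratio 10.5, counting interval 2.52 to 92.5), and Bbc3 at 1.66 (SE 0.77, 95% CI -0.06 to 3.38, adjusted p = 1). Pmaip1 stood at 0.94 (SE 0.79), and Trp53inp1 at 0.87 (SE 0.39, 95% CI 0.02 to 1.72, unadjusted p = 0.0457 and adjusted p = 1 in edgeR's quasi-likelihood fit). The lowest were Trp73 (-1.45, SE 1.22), Ak1 (-0.66), Fas (-0.55) and Cd82 (-0.50). In arrest and growth control the values ran from -0.37 (Cdkn1a) to 0.30 (Zmat3), and in repair from 0.01 (Ddb2) to 0.48 (Polk). Trp53 stood at -0.26, Mdm2 at -0.07, Bax at 0.07 and Apaf1 at -0.06. Half-widths of the 95% confidence intervals had a median of 0.96 over the members.

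The inhibitor groups were also set against each other, a comparison that leaves out the DMSO library but shares both SIS3 libraries with the first and still has the kit in it. Of the 33 genes, 3 were higher in SIS3 than in SB431542 and 0 lower (9.09% of the set, against 2.44% of all genes in either direction, 0.499% higher and 1.95% lower). DESeq2 also called 3 and 0, and at an unadjusted p under 0.05 there were 13 higher and 1 lower (4.71% and 9.63% of all genes). The 3 were Trp53inp1 (log2 fold change 1.89, SE 0.37, adjusted p = 0.0175, edgeR), Ccng1 (1.78, SE 0.34, adjusted p = 0.012) and Zmat3 (1.46, SE 0.31, adjusted p = 0.026). Bbc3 (1.70, SE 0.69, adjusted p = 0.297), Pmaip1 (2.40, SE 0.73, adjusted p = 0.127) and Cdkn1a (1.58, SE 0.47, adjusted p = 0.117) did not pass. All 3 calls ended when only genes averaging at least 5 CPM were kept, where adjusted p was 0.108, 0.0798 and 0.101 for Trp53inp1, Ccng1 and Zmat3. Over 12 alternatives on summed libraries, Trp53inp1 was called in 10, Ccng1 in 11 and Zmat3 in 9.

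The third comparison set E13.5 against E12.5 germs, both in DMSO and both from SMARTer libraries. Of the 33 genes, edgeR called 0 higher and 1 lower (3.03% of the set, against 5.23% of all genes in either direction, 4.06% higher and 1.17% lower), which is near the background. The unadjusted test at 0.05 gave 3 higher and 2 lower (15.4% and 8.88% of all genes), and DESeq2 called 0 and 0. The gene that fell was Gadd45a (ENSMUSG00000036390; chromosome 6, 67035096 to 67037457, minus strand), at 1.48 CPM in each E13.5 DMSO column, against 9.36 and 8.85 CPM in the E12.5 DMSO columns. These are 26 and 282 counts, and the log2 fold change was -2.58 (SE 0.66, adjusted p = 0.0392, edgeR). The call ended in 7 of 12 alternatives on summed libraries (adjusted p up to 0.147), among them the omission of the first E13.5 DMSO column (0.074), the second E13.5 DMSO column (0.0802) or the second E12.5 DMSO column (0.0518). Cell type markers moved by stage too. Of 6 erythroid markers, summing to 94.7 CPM at E13.5 against 428 CPM at E12.5, 1 fell (Hbb-bh1, adjusted p = 0.026, edgeR) and all 6 were below 0. Of 6 skeletal muscle markers, summing to 748 CPM at E13.5 against 709 CPM at E12.5, 2 fell, Myod1 and Pax7, both at 0 counts at E13.5 against 7.72 and 3.58 CPM at E12.5. Their part in the stage values of the p53 target genes was not tested. Gadd45a shares 17% of its 31-base words with the gene E230016M11Rik on the opposite strand.

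Other members differed by stage without passing. Pmaip1 was higher at E13.5 by 2.74 on the log2 scale (SE 0.81, adjusted p = 0.065, edgeR), from 104 counts at E13.5 and 28 at E12.5. Ccng1 was higher by 1.16 (SE 0.36, adjusted p = 0.0764). Ak1 was at 1.30 (SE 0.67), Tnfrsf10b at 0.85 and Rrm2b at 0.83, whereas Plk2 was at -0.76, Ercc5 at -0.72, Ddb2 at -0.71 and Trp53 at -0.51. Gdf15 was at 0 counts at E13.5, which allows up to 0.171 CPM. Cdkn1a (-0.19), Bax (-0.24), Bbc3 (-0.09), Apaf1 (-0.12) and Mdm2 (0.04) were close to 0, and Trp73 was lowest apart from Gadd45a and Gdf15 (-1.42, SE 1.25). The median over the 33 genes was -0.08, with 16 above and 17 below 0, and in TMM-scaled CPM 49.8% of all genes were higher. This comparison shares its E12.5 DMSO library with the first and second, so the values are given side by side without a measure of overlap.

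Per kilobase of the longest annotated transcript, the level of these genes in E12.5 DMSO spanned 61.5 CPM per kilobase for Plk2 to 0.0418 for Gdf15. After Plk2 came Rps27l at 40.6, then Mdm4 at 26.0, Mdm2 at 25.7, Trp53 at 25.1 and Ei24 at 25.1 CPM per kilobase, which lie too close to be ordered. The death genes Bbc3 and Pmaip1 were near the bottom, at 1.34 and 0.332 CPM per kilobase, and stood at 14.5 and 3.56 in the SIS3 mean. Cdkn1a stood at 15.2 CPM per kilobase in the SIS3 mean, against 6.26 in E12.5 DMSO. These are levels, and the length of the transcript in use was not measured.

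Further genes of the pathway, from lists that hold none of the 33 members, were read in the same fits. These lists too were chosen with earlier results of these data known. They rest on the same libraries, so they are a description and no independent support. Of 27 other p53 pathway genes, 4 rose and 0 fell with SIS3 (median log2 fold change 0.55): Sesn2, an mTOR-restraining sestrin (2.89, SE 0.36, adjusted p = 0.000622), Eda2r, a death receptor of the ectodysplasin family (4.07, SE 0.72, adjusted p = 0.00796), Btg2, an antiproliferative factor (1.63, SE 0.33, adjusted p = 0.0145), and Ddit4, another mTOR inhibitor (1.63, SE 0.39, adjusted p = 0.0335), all by edgeR's quasi-likelihood test. Of all genes tested, 0.794% were called higher and 3.03% lower in that comparison. At an unadjusted p under 0.05 there were 8 of the 27 in either direction, against 5.82% of all genes higher and 11.0% lower. Eda2r stood at 42.4 and 19.1 CPM in the SIS3 libraries, against 1.74 CPM in E12.5 DMSO, with log2 ratios of 4.55 for library 1 and 3.36 for library 2. The median ratio of the 27 was 0.78 in library 1 and 0.25 in library 2. In SB431542 and at E13.5 edgeR called 0 of the 27, against 0% and 5.23% of all genes. At an unadjusted p under 0.05 there were 1 and 4 of the 27 in either direction. The shares of all genes at that threshold were 0.568% higher and 0.668% lower in SB431542, and 15.4% higher and 8.88% lower at E13.5. The medians of the 27 were -0.06 and -0.09. Of 15 tested genes upstream of p53, such as the damage kinase Atm, edgeR called 0 with SIS3 (median 0.30, 3 at an unadjusted p under 0.05), 0 with SB431542 (0 at an unadjusted p under 0.05) and 1 lower at E13.5, Chek2 (-2.18, SE 0.54, adjusted p = 0.0361). The shares of all genes called were 3.82% with SIS3 and 0% with SB431542 in either direction, and 1.17% lower at E13.5. At an unadjusted p under 0.05 the shares with SIS3 were 5.82% higher and 11.0% lower.

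Of the 18 cell cycle genes held down through p21, 1 fell with SIS3, the cyclin gene Ccne2 (-2.91, SE 0.52, adjusted p = 0.00696, edgeR). Of all genes, 3.03% were called lower. At an unadjusted p under 0.05 there were 5 of the 18, all lower, against 11.0% of all genes lower. The 18 summed to 1577 CPM in SIS3 library 1 and 608 CPM in library 2, against 1484 CPM in E12.5 DMSO, so the sum was lower in library 2 but not in library 1. Their median log2 ratio was -0.28 in library 1, with 10 below 0, and -1.64 in library 2, with 18 below 0. In SB431542 edgeR called 0 (0 at an unadjusted p under 0.05) and all 18 were below 0, with a median of -0.70. A list of 14 stress genes of the transcription factors ATF4 and CHOP rose in 7 members with SIS3 (median 1.79), with Trib3 highest at 4.35 (SE 0.45, adjusted p = 0.000118). At an unadjusted p under 0.05 there were 12 of the 14 in either direction. Over all genes, 0.794% were called higher, and the unadjusted test gave 5.82% higher and 11.0% lower. Sesn2 belongs to that list too, and Bbc3, Pmaip1, Gdf15 and Tnfrsf10b are known as targets of these factors as well as of p53. The summed level of the list was 1552 and 1753 CPM in the SIS3 libraries, against 572 CPM in E12.5 DMSO, and its part in the levels of those members was not tested.

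**Figure D4:**
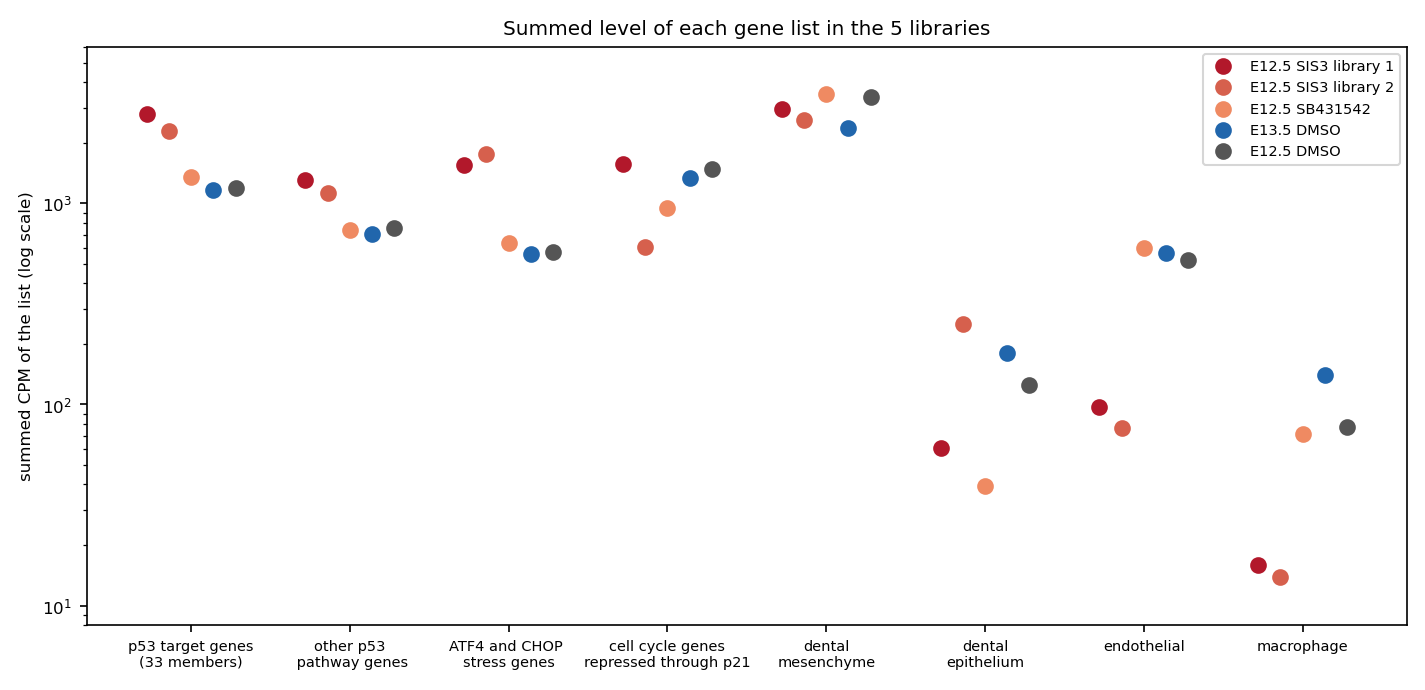
Summed CPM (logarithmic vertical axis) of the p53 target genes, related lists and cell type marker lists in the 5 libraries, 1 point per library. The p53 target genes stand at 2772 and 2305 CPM in the SIS3 libraries and between 1160 and 1356 CPM in the others, while endothelial markers stand at 96.7 and 76.1 CPM in SIS3 and between 523 and 601 CPM in the others.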

How the data were processed

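RNA-seq was analysed from cultured mouse molar tooth germs, with 8 deposited columns in 4 groups. What the authors deposited are estimated counts, whole numbers for each gene with no scaling between libraries. Per the submitters' processing notes, Salmon, HISAT2, SAMtools, deepTools and DESeq2 were used, with build mm10; the sources used here do not give their roles, versions, annotation or strand settings. Where reads match several near-identical genes, their counts are uncertain.

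Columns were matched by name. The paired columns of 3 groups were summed, which leaves 5 libraries of 5995709 to 30975010 counts, in which 3 counts correspond to 0.0969 to 0.5 CPM. The fit used edgeR 4.0.16 in R 4.3.3: TMM, filterByExpr (19022 genes), a robust quasi-likelihood F test, no factor other than group, and an adjusted p (Benjamini-Hochberg, over all genes of each comparison) under 0.05 for a call. It has 1 residual degree of freedom plus 12.5 borrowed across genes. The common biological coefficient of variation was 29.3%. DESeq2 1.42.0 was an alternative. Scripts were tested on simulated data.

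CPM values are scaled to the library total, per-library log2 ratios to the TMM-scaled total. Shared 31-base words come from GENCODE M21 transcripts (GRCm38), promoters from RefSeq. GC content and length were found for all 33 members and 99.3% of genes tested. The members and all lists were chosen with earlier results of these data known. Values are given for called members, for Trp53, Mdm2, Cdkn1a, Bax, Bbc3, Ddb2 and Apaf1, for the highest and lowest of each class and for members at 0; from other lists, for the called genes, up to 6. Alternatives covered scaling, test, filters, columns as replicates, groups fitted, GC and length, gene classes and left-out columns; the SIS3 against SB431542 alternatives and no others were added after the data were seen. Intervals of count ratios cover counting error only.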

Additional observations from a re-analysis of the deposited data

How the results depend on the processing

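Of the 33 members, the number called higher with SIS3 (5) was 9 without a low-count filter, 1 with a minimum mean of 5 CPM, and 3 each with the 2 groups alone, with GC and length trends removed, and without receptor genes, predicted genes and pseudogenes; leaving out columns gave 4 to 5. The number called lower (0) was 1 without a filter. At E13.5 the number higher (0) was 2 without a filter. The number lower there (1) was 0 with DESeq2, with that 5 CPM minimum, with trends removed and without those gene classes, and 0 to 1 with columns left out. For SIS3 against SB431542 the number higher (3) was 0 with that 5 CPM minimum and 1 with trends removed. Over all genes the SIS3 calls also moved, from 24 to 335 higher and 106 to 1079 lower across these settings. For SB431542 against E12.5 DMSO the count of members called was 0 in every alternative run. The cause of these shifts was not tested. RLE factors changed no count of members called.

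With all 8 columns as replicates and no replicate block, which counts near-copies as samples, 21 members were called higher and 3 lower with SIS3, 8 and 6 at E13.5, and 19 and 3 for SIS3 against SB431542. With the replicate block the counts were 20 and 3, 8 and 6, and 19 and 1. The shares of all genes called in these fits are not given here, so the counts are no result about the members. Same-numbered columns did not deviate together (correlations from -0.0234 to 0.000869). Where paired columns are near-copies, such correlations cannot show whether same-numbered columns share an origin.

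Values near 0 changed sign: at E13.5, Mdm2 to -0.00056 without a filter and -0.0023 without the second E13.5 DMSO column (0.090 without the first), Bbc3 to 0.0025 with that 5 CPM minimum, 0.093 with trends removed and 0.20 without the second E12.5 DMSO column (-0.30 without the first), Bax to 0.053 with trends removed, and Cdkn1a to 0.016 without the second E13.5 DMSO column (-0.40 without the first); in SB431542, Ddb2 to -0.013 without the second column (0.040 without the first). None of these was called. Without a SIS3 library no residual degree of freedom was left, so those fits gave values and no test. Depth limits Gdf15, Dram1, Trp73 and Pmaip1 most.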
